A study of Mus musculus with 88 samples.

Results

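The cells described here are the 265 cells that the deposited metadata of the single-cell experiment place in cluster 8 at a clustering resolution of 2.5, out of 4949 cells in all. The members were chosen by that cluster number alone, and the working name of the cluster is undifferentiated Jarid2 null cells. The running text of the study gives the names Mtf2 null and Jarid2 null to this cluster and to the main cluster of Mtf2 null cells the other way round, and the genotypes in the metadata are followed here. Mouse embryonic stem cells (ESCs) were kept in serum with leukemia inhibitory factor (LIF) and were then left to form embryoid bodies, aggregates that differentiate once LIF is removed. Single cells of 4 genotypes, WT (E14), Mtf2 null, Jarid2 null and Eed null, were sorted into 384-well plates at days 0, 4, 7 and 10, with 1 library for each genotype and day and 16 libraries in all. The labels give E14 as the strain of the WT, Mtf2 null and Jarid2 null samples alike, whereas the study's methods name JM8 as the WT line that matches the background of the Jarid2 null cells, Pcl1-3 wt for Mtf2 null and J1 for Eed null. Each genotype is thus a single established ESC line, so that the genotype and the line cannot be told apart in the single cells. Bulk RNA from undifferentiated WT, Mtf2 null and Jarid2 null cultures of a mesoderm and an endoderm series, with 4 libraries per genotype, and from the 3 WT lines was used for comparison.

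Polycomb repressive complex 2 (PRC2) places the repressive methyl mark on lysine 27 of histone H3 and keeps developmental genes silent in ESCs. Its core holds EED, SUZ12 and EZH1 or EZH2, and accessory subunits direct it to chromatin in distinct assemblies, PRC2.1 with MTF2 or a related Polycomb-like protein and PRC2.2 with JARID2 and AEBP2. ESCs in serum and LIF sustain a network of pluripotency factors that includes the nuclear receptor ESRRB and the homeodomain protein NANOG, and cells move between naive and more advanced states within a dish.

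Of the 265 cells, 250 came from libraries labelled Jarid2 null (94.3%) and 15 from libraries labelled Mtf2 null (5.66%). The Jarid2 null library of day 0 gave 223 of its 337 kept cells, that is 66.2% with an exact 95% binomial (Clopper-Pearson) interval of 60.8% to 71.2%. The later Jarid2 null libraries gave 22 of 321 cells at day 4, 5 of 302 at day 7 and 0 of 264 at day 10, where a count of 0 allows a share of up to 1.14%. The Mtf2 null libraries gave 14 of 347 cells at day 0 and 1 of 331 at day 4. No WT or Eed null cell was a member, and in the WT library of day 0 the 0 of 340 cells allow a share of up to 0.882% by the same limit of 3 counts, while the exact interval ends at 1.08%. The remaining 114 kept cells of the day 0 Jarid2 null library were spread over clusters 0 (45), 5 (28), 2 (14), 3 (13), 11 (8), 1 (4) and 17 (2). Cluster 3 held 335 cells, 311 of them WT, and cluster 0 held 386 cells, 334 of them Mtf2 null.

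**Figure D1:**
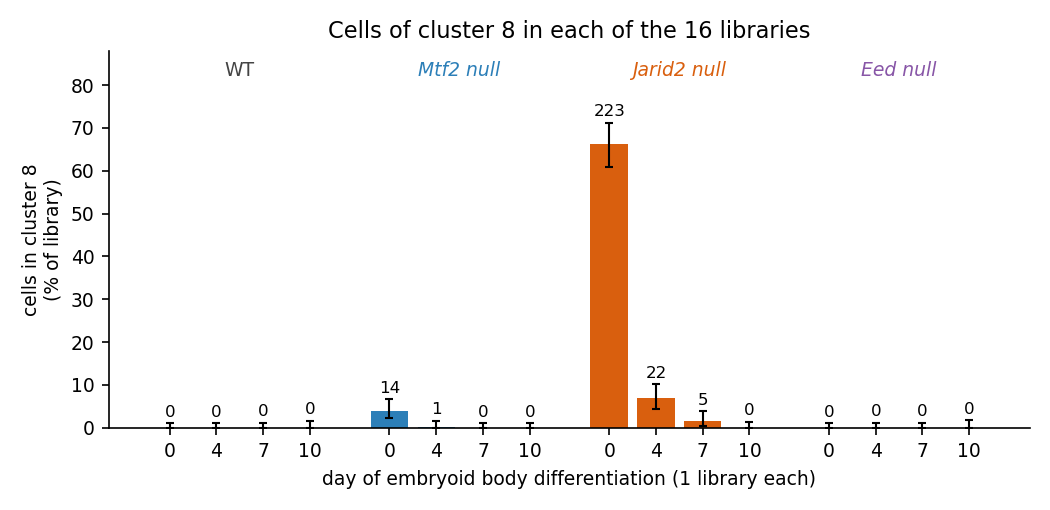
Share of each library's kept cells that lay in cluster 8, in percent, for the 4 genotypes at days 0, 4, 7 and 10, with the number of cells above each bar and exact 95% binomial intervals. The Jarid2 null library of day 0 stands at 66.2%, and the next highest, Jarid2 null at day 4 and Mtf2 null at day 0, stand at 6.85% and 4.03%.

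The grouping of these cells was largely kept when the deposited clustering was finer. At resolution 3, 227 of the 265 cells lay together in a cluster of 254 cells. At resolution 8 the cells split mainly into a cluster of 158 cells, all of them members, and 93 cells that made up most of a cluster of 113. All 384 well barcodes were in use in more than 1 library, as the plate design implies, and carry no information on shared cells. Cluster 8 had the highest median depth of the 22 clusters at 10060 UMIs per cell (range 1143 to 33128), beside 8485 in cluster 3, 9972.5 in cluster 0 and 6550 over all other cells. Only 8 cells exceeded 2 times the cluster median and 1 exceeded 3 times. Levels below are UMIs of a gene summed over a group of cells, per 1000000 UMIs of that group (CPM), from 2557424 UMIs in cluster 8, 2941266 in cluster 3 and 3962468 in cluster 0. Their intervals are exact 95% Poisson intervals, which cover counting error only. With 1 library per genotype and day, and with clusters built from the same genes, the differences between clusters are descriptions without a test.

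The name undifferentiated was read against its markers. Nanog was at 250 CPM (interval 231 to 270) against 217 in cluster 3 and 268 in cluster 0. Esrrb was at 174 CPM (159 to 191), lower than the 239 of cluster 3 and the 206 of cluster 0. Once every cell was thinned to 5000 UMIs, which 202 of the 265 cells reached, Nanog had a UMI in 68.8% of cluster 8 cells, 65.7% of cluster 3 cells and 63.5% of cluster 0 cells (75.5%, 70.7% and 75.9% without thinning). Esrrb had a UMI in 108 of 202 (53.5%), 69.0% and 189 of 315 cells (66.4%, 77.3% and 75.6% without thinning). In cluster 4, which the study places in the mesoderm, with a median of 6137.5 UMIs and taken here as the background, the thinned shares were 3.37% for Nanog and 2.40% for Esrrb. Detection of both genes was therefore well above the background, and cluster 8 was the lowest of the 3 undifferentiated clusters in Esrrb. In cluster 5, an early differentiating cluster of the study, the thinned shares were 60.8% for Nanog and 33.8% for Esrrb. Nanog thus hardly set cluster 8 apart from cluster 5, whereas Esrrb was detected in a larger share of cluster 8 cells.

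The 15 naive pluripotency genes summed to a median of 23 UMIs per thinned cell in cluster 8, beside 27 in cluster 3, 24 in cluster 0, 14 in cluster 5 and 1 in cluster 4. For the 11 general pluripotency genes the medians were 28.5, 30, 29, 28 and 1. The summed levels were thus close, but single genes of the naive list stood apart. Klf4, a Krüppel-like factor that acts downstream of LIF, was at 402 CPM in cluster 8 against 206 in cluster 3 and 193 in cluster 0, and after thinning it had a UMI in 81.2%, 57.6% and 49.8% of cells. Zfp42, which encodes the marker REX1, was at 125 CPM against 821 in cluster 3 and 144 in cluster 0. Tcl1, a coactivator of the kinase AKT, was at 24.2 CPM against 170 and 112. Fbxo15, a target of OCT4 and SOX2, was at 124 CPM against 259 and 176. Dppa3, which protects maternal methylation in the zygote, was at 72.3 CPM against 48.6 and 199. Klf2 (664 CPM), Klf5 (1019 CPM), Nr0b1 (611.2 CPM) and Tdh (540 CPM) lay within 2-fold of both clusters. Sox2 was at 960 CPM against 992 and 1100, and all 10 general pluripotency genes at a level of 50 CPM or more lay within 2-fold of both. Most genes did, since of all genes at that level 2.28% were 2-fold higher and 4.17% lower than cluster 3, and 0.838% and 1.61% than cluster 0.

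Few genes separated cluster 8 from both of the other undifferentiated clusters. A gene was counted when it had at least 50 CPM in the higher group and differed at least 2-fold, with 1 CPM added. Against cluster 3, 104 of 4556 genes were higher (2.28%) and 190 lower (4.17%). Against cluster 0, 36 of 4297 genes were higher (0.838%) and 69 lower (1.61%). Only 9 genes of the 4188 at the level in both comparisons were higher than in both clusters (0.215%) and 30 were lower (0.716%). These 39 genes are called leading genes below. A log2 ratio rests on the scale, and the median over all genes was -0.10 against cluster 3 and -0.01 against cluster 0. With the median of gene ratios as the scale, 136 genes were higher and 139 lower than in cluster 3. The excess of lower genes against cluster 3 thus depended on the scale. Against cluster 0 the counts were 36 and 66, and the leading genes were then 13 higher and 24 lower.

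The 9 higher leading genes were Hal, Syne2, Nqo1, Akr1b3, Kdm2b, Urah, Aoah, Zic5 and Elmo1. Several encode metabolic enzymes. Hal, the histidine ammonia-lyase that begins histidine breakdown (chromosome 10, 93488768 to 93519304 in GRCm38), was at 82.5 CPM (71.8 to 94.4) against 9.52 in cluster 3 and 20.9 in cluster 0. Nqo1, a quinone reductase and a classic target of the oxidative stress factor NRF2 (chromosome 8, 107388225 to 107403206), was at 268 CPM (248 to 289) against 103 in each of the other clusters. Akr1b3, an aldose reductase, was at 250 CPM against 97.2 and 97.7. Urah, a hydrolase of the uric acid pathway, was at 121 CPM against 40.8 and 52.5. Aoah, which removes acyl chains from lipopolysaccharide, was at 76.2 CPM against 18.4 and 33.1.

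The other 4 higher leading genes encode regulators and structural proteins. Kdm2b, a histone demethylase that brings a variant PRC1 complex to CpG islands (chromosome 5, 122870665 to 122989823), was at 155 CPM (140 to 171) against 63.9 and 67.1. Zic5, a zinc finger factor of the early epiblast and neural plate, was at 113 CPM against 49.3 in cluster 3 and 13.4 in cluster 0. It was not particular to cluster 8, since after thinning 35.1% of cluster 8 cells and 54.1% of cluster 5 cells had a UMI of Zic5. For Hal these shares were 30.2% and 6.76%. Syne2, a nuclear envelope protein that links the nucleus to the cytoskeleton, was at 84.5 CPM against 27.9 and 24.5. Elmo1, an adaptor of Rac activation, was at 55.5 CPM against 18.0 and 24.0, which left it just inside the level limit.

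**Figure D2:**
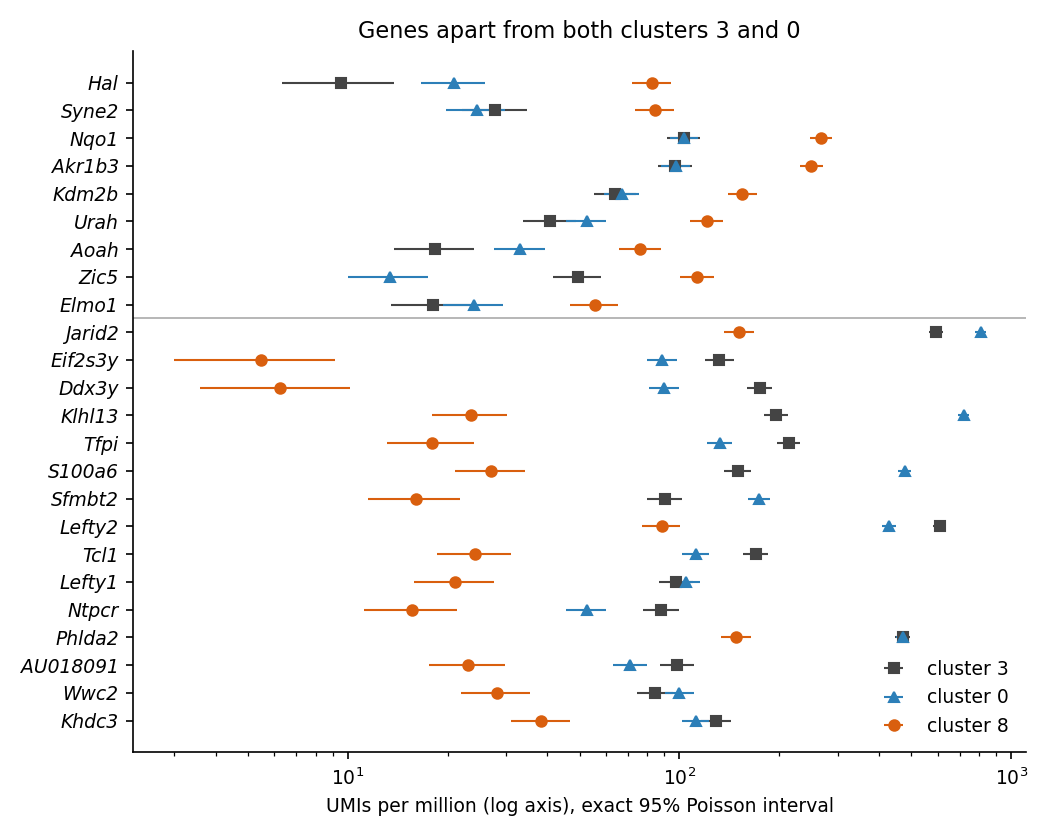
Level in CPM (log axis) with exact 95% Poisson intervals for the 9 higher leading genes, above the line, and the first 15 of the 30 lower ones below it, in clusters 8, 3 and 0. Cluster 8 lies to the right of both other clusters for Hal (82.5 CPM) and to their left for Eif2s3y (5.47 CPM), and Jarid2 is at 151 CPM.

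The 30 lower leading genes were led by the Y-linked genes Eif2s3y and Ddx3y. Eif2s3y, a translation initiation factor subunit (chromosome Y, 1010543 to 1028847), was at 5.47 CPM against 132 in cluster 3 and 88.6 in cluster 0. Ddx3y, an RNA helicase, was at 6.26 CPM against 175 and 90.1. Detection of both genes was low in cluster 5 as well. In clusters 8, 3, 0 and 5, Eif2s3y had a UMI in 1.49%, 48.0%, 27.9% and 9.01% of thinned cells. For Ddx3y the shares were 2.48%, 46.9%, 22.9% and 4.50%. The Y-linked gene Uty was at 0.391 CPM against 31.6 and 27.5. Klhl13, an X-linked adaptor of a ubiquitin ligase, was at 23.5 CPM against 195 and 719. S100a6, a calcium-binding protein, was at 26.98 CPM against 150 and 478. Tfpi, an inhibitor of tissue factor in coagulation, was at 18.0 CPM against 213 and 132, and Sfmbt2, a Polycomb group protein with MBT repeats, was at 16.0 CPM against 90.4 and 174.

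Antagonists of Nodal signaling were among the lower leading genes. Lefty2 and Lefty1 encode secreted inhibitors that are themselves induced by Nodal and activin signals. Lefty2 was at 88.4 CPM (77.2 to 101) against 607.9 and 427, and Lefty1 at 21.1 CPM against 97.9 and 104. The ligand Nodal itself was low in all 3 clusters, at 11.7, 8.50 and 20.2 CPM, and the coreceptor gene Tdgf1 was at 998 CPM against 1288 and 878. The receptor gene Acvr2b and the transducer gene Smad2 were at 67.7 and 46.1 CPM, within 2-fold of both clusters. Other lower leading genes were Phlda2, an imprinted growth regulator of the placenta, at 148 CPM against 471 and 470, and Khdc3, a component of the subcortical maternal complex of the oocyte, at 38.3 CPM against 129 and 112.

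Jarid2 itself (chromosome 13, 44729474 to 44921643) was a lower leading gene. Its level was 151 CPM (137 to 167) against 592 in cluster 3 and 808 in cluster 0. The day 0 Jarid2 null members alone had 128 CPM, and the 45 Jarid2 null cells of the same library in cluster 0 had 167 CPM. Transcripts of the targeted gene were therefore reduced but present. SORT-seq reads come from the ends of transcripts, the deleted part of Jarid2 is not given in the sources used here, and the remaining transcripts say nothing about the protein. Mtf2 was at 455 CPM against 785 in cluster 3 and 89.1 in cluster 0, and Eed was at 524 CPM against 497 and 449. Of the other PRC2 genes, Suz12 was at 273 CPM against 297 and 410, and Rbbp4 at 803 against 860 and 830.

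The cells with other labels followed their labels rather than the cluster in these genes. The 15 Mtf2 null members had 15.1 CPM of Mtf2 (2 UMIs), 621 CPM of Jarid2, 98.4 CPM of Eif2s3y and 68.1 CPM of Ddx3y. The day 0 Jarid2 null members had 481, 128, 0.442 (1 UMI) and 2.65 CPM of the same genes. Without the Mtf2 null cells and the later days, and with only Mtf2 null and WT cells of day 0 in clusters 0 and 3, 16 genes were higher than in both, among them all 9, and 34 were lower, among them 29 of the 30. A few cells went against their label. The 13 Jarid2 null cells of day 0 in cluster 3 had 411 CPM of Jarid2, 113 CPM of Eif2s3y, 177 CPM of Ddx3y, 250 CPM of Meg3, 89 CPM of Hprt and 604 CPM of Rplp1, whereas the WT cells of that cluster had 598, 129, 176, 361, 3.67 and 127 CPM. In Eif2s3y, Ddx3y and Meg3 they thus lay near WT and far from cluster 8. None of these 13 cells is a member of cluster 8.

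**Figure D3:**
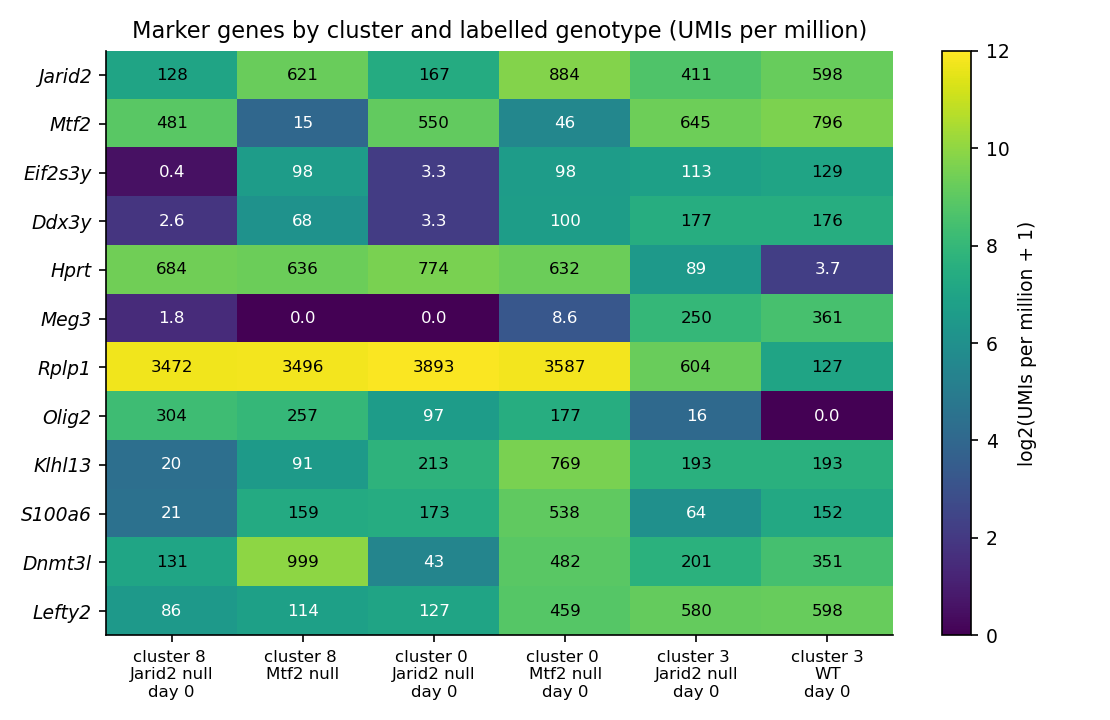
Levels of 12 genes in CPM, printed in each field and colored on a log2 scale with 1 added, for the members and for the cells of clusters 0 and 3 by labelled genotype. Eif2s3y is at 0.442 CPM in the Jarid2 null members and at 98.4 CPM in the Mtf2 null members of the same cluster, and Mtf2 is at 481 and 15.1 CPM.

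Against cluster 3 several wide gaps lay in genes in which cluster 0 stood on the same side as cluster 8. Hprt, a purine salvage enzyme that some E14 sublines are known to lack, was at 675 CPM in cluster 8 against 8.16 in cluster 3, and at 631 in cluster 0. Olig2 and Olig1, neighboring genes for neural transcription factors on chromosome 16, were at 295 and 176 CPM against 0.680 and 1.70 in cluster 3 and 163 and 122 in cluster 0. Rplp1, which encodes a protein of the ribosomal stalk, was at 3537 CPM against 163 and 3674. Ribosomal protein genes have near-identical pseudogenes, so a count that can be split between copies is uncertain. In the opposite direction, the imprinted noncoding RNAs Meg3 and Rian of chromosome 12 were at 1.56 and 0.782 CPM against 358 and 92.1 in cluster 3 and 10.1 and 4.54 in cluster 0. Against cluster 0 alone, Mtf2 and Zic5 stood out as given above, and Vim, the intermediate filament vimentin, was at 96.6 CPM against 16.2 in cluster 0 and 252 in cluster 3. Rhox6, an X-linked homeobox gene of the placenta and germline, had 0 UMIs in cluster 8, which allows up to 1.17 CPM, and 74.7 CPM in cluster 0.

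Most gene lists of differentiated cell types summed to less than over all other cells. The 12 primitive streak genes summed to 23.1 CPM, against 14.6 in cluster 3 and 30.5 in cluster 0, and 4 of them, Wnt8a, Mesp1, Lhx1 and Cer1, had no UMI in cluster 8. The 17 endoderm genes summed to 203 CPM, of which Sparc, a matrix protein of many cells, gave 133, and Foxa2, Amn, Afp, Ttr and Hnf4a had no UMI. The 10 cardiac and lateral mesoderm genes summed to 242 CPM, against 697 in cluster 3, 300.3 in cluster 0 and 522 over all other cells, and Bmp4 gave 231 of the 242. The 12 neural ectoderm genes summed to 178 CPM, close to the 173 of cluster 3 and the 181 of all other cells and above the 136 of cluster 0, and Tubb3, a tubulin of neurons, gave 132. The 7 feeder fibroblast genes summed to 1.17 CPM, and Col1a1, Col1a2, Col3a1, Postn and Dcn had no UMI. The 4 Zscan4 genes in the table, markers of a rare state that resembles the early embryo, had no UMI either. Of the formative epiblast genes, Pou3f1 was at 63.0 CPM against 28.9 and 59.8, Dnmt3a at 113 against 110 and 48.7, Tcf15 at 248 against 255 and 109, and Lin28a at 139 against 318 and 167. Otx2, a driver of the formative state, had a UMI in 8.42% of thinned cluster 8 cells and in 50.9% of cluster 5 cells (15.1% and 58.7% without thinning). Cluster 4 had 12.0%, so that detection of Otx2 in cluster 8 was no higher than there.

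Ligands and targets of other pathways showed a mixed picture. Bmp4, the BMP ligand, was at 231 CPM against 683 in cluster 3 and 283 in cluster 0, while its target Id1 was at 372 CPM against 236 and 203. Gbx2, a homeobox gene downstream of LIF and STAT3, was at 210 CPM against 156 and 73.2. Of the 8 LIF and STAT3 genes at the level, none lay 2-fold from cluster 3, whereas 1 of 6 was lower than in cluster 0, Pim1, a kinase induced by STAT3, at 98.1 CPM against 142 and 313. Over all genes at the level 2.28% were higher and 4.17% lower than cluster 3, and 0.838% and 1.61% than cluster 0. Counts near 0 in a short list are therefore close to what all genes give. Socs3, the feedback inhibitor, was at 224 CPM against 232 and 129. Fgf4, the main FGF ligand of ESCs, was at 321 CPM against 267 and 226. None of the 8 FGF and ERK genes at the level lay 2-fold from either cluster, which is near the shares of all genes too. Lef1, a Wnt effector, was at 35.97 CPM against 0.680 and 3.53. In glycolysis, Pkm was at 2504 CPM against 1056 and 2404, whereas Pfkp was at 89.2 against 226 and 69.2 and Bnip3, a hypoxia target, at 108 against 294 and 75.5. None of the 15 S phase genes and none of the 18 G2/M genes at the level lay 2-fold from cluster 3 or cluster 0, which is near the low shares of all genes given above. The ribosomal protein list had a median log2 ratio of 0.47 against cluster 3, where 7 of 75 genes were higher and 1 lower, beside 2.28% and 4.17% of all genes. Against cluster 0 its median was -0.01, and 0 of 77 genes were higher or lower, beside 0.838% and 1.61% of all genes. Among the imprinted genes, Grb10 was at 298 CPM against 60.2 and 179 and Peg3 at 298 against 95.2 and 368.

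Against all 4684 other cells of the series, 112 of 4645 genes were higher in cluster 8 (2.41%) and 314 lower (6.76%). Olig2 (295 against 31.9 CPM), Hal (82.5 against 8.53), Aoah (76.2 against 9.05), Inhbb (70.0 against 10.5) and Urah (121 against 19.5) led the higher genes. Inhbb encodes a subunit of activin B and inhibin B. The embryonic and adult globin genes Hba-x, Hbb-bh1, Hba-a2, Hba-a1 and Hbb-y led the lower ones, with Hba-a1 and Hba-a2 nearly identical in sequence, and Hba-x had 0 UMIs in cluster 8 against 773 CPM elsewhere. Against cluster 5, which had the lower naive sum given above, 66 of 4348 genes were higher in cluster 8 (1.52%) and 54 lower (1.24%).

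Within the day 0 Jarid2 null library, where plate and label are shared, cluster 8 cells could be set beside the cells of other clusters. This comparison was chosen after the data were seen. Against the 45 cells of cluster 0, 90 of 4434 genes were higher in cluster 8 and 102 lower. Klhl13 was at 19.9 CPM in cluster 8 and 213 in cluster 0, and S100a6 at 21.2 and 173. The cells were placed in these clusters by their expression, so gaps between the clusters within this library are in part built in. Notum, a secreted Wnt deacylase, was at 93.2 CPM against 10.0, and Nr5a2, a nuclear receptor that can act on the Oct4 promoter, was at 114 CPM against 23.4. Eif2s3y was at 0.442 and 3.34 CPM, and Hprt at 684 and 774. The cells of cluster 0 were shallower, at a median of 5840 UMIs per cell against 10560, and their UMIs per UMI of the spiked-in ERCC control RNA were lower too, at a median of 274 against 375. The part of depth in these gaps was not tested.

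Against the 28 cells of cluster 5 from the same library, 101 of 4384 genes were higher in cluster 8 and 126 lower. Bmp4 was at 245 CPM in cluster 8 and 15.2 in cluster 5, and Gbx2 at 221 and 30.4. Sfrp1, a secreted Wnt antagonist, was at 244 CPM against 49.3, and Tcf15 at 229 against 56.9. In the other direction Otx2 was at 30.5 CPM in cluster 8 and 205 in cluster 5, and Hesx1, a repressor of the anterior neural plate, was at 19.0 and 121. The counts of UMIs behind the smaller groups were low, such as 4 UMIs of Bmp4 in the cluster 5 cells.

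The members differed among themselves by day and by genotype. Between the 22 members of day 4 and the 223 of day 0 in the Jarid2 null libraries, with a level limit of 200 CPM because of the smaller sum, 33 of 1251 genes were higher at day 4 and 25 lower. Id3, an inhibitor of differentiation induced by BMP, was at 327 CPM at day 4 against 70.2 at day 0, Bnip3 at 391 against 93.2, Igfbp2 at 362 against 124 and Dnmt3l at 348 against 131. Bmp4 was at 28.4 CPM (4 UMIs) against 245, Socs3 at 63.9 against 238 and Tfcp2l1, a naive factor downstream of LIF, at 85.2 against 230. The naive list summed to 2955 CPM at day 4 and to 4451 over all members, while the general pluripotency list summed to 6378 and 5808. Between the 15 Mtf2 null members and the Jarid2 null members of day 0, 24 of 1278 genes were higher and 19 lower. Dnmt3l, a cofactor of de novo DNA methylation, was at 999 CPM against 131, and Stmn2, a microtubule regulator of neurons, at 742 against 142, besides Jarid2 and Mtf2.

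From cell to cell, 5 of 2315 genes with a mean of at least 0.5 UMIs per thinned cell stood highest above the trend of variance on mean. They were Mt2, Dnmt3l, Stmn2, Lars2 and Ptma. Mt2, a metal-binding metallothionein, had a variance over mean of 5.82 and ranged up to 46 UMIs in a cell. Dnmt3l had a variance over mean of 4.62 in all 202 thinned cells and of 2.65 in the 177 Jarid2 null cells of day 0 among them, and Stmn2 of 4.38 and 3.59. The value of Dnmt3l was therefore lower once the Mtf2 null members and those of later days were left out. Lars2, which encodes a mitochondrial leucyl-tRNA synthetase, kept 3.94 beside 3.67 over all the cells.

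At later days the leading genes could be read in cells outside clusters 8 and 3. These were the other cells of the Jarid2 null and WT libraries of days 4, 7 and 10, with 1 library each. All 9 higher genes were higher in the Jarid2 null than in the WT library on all 3 days, whereas 49.9% of the 1885 genes with that sign against cluster 3 were. Of the 30 lower genes, 20 were lower on all 3 days, against 24.6% of 2671 genes. AU015836 and Gatsl3 were lower on none. The shares over all genes cover ratios of any size, whereas the leading genes were chosen for a gap of at least 2-fold. A wider gap between the same lines can keep its sign more easily, so no conclusion was drawn from the difference. At 20 CPM or more in the higher library on each day, the counts were 6 of 6 and 15 of 22. Eif2s3y was at 2.10, 11.1 and 9.22 CPM on the 3 days in Jarid2 null cells and at 187, 126 and 180 CPM in WT cells. Jarid2 was at 118, 184 and 132 CPM against 275, 290 and 215. Nqo1 was at 136, 57.3 and 40.3 CPM against 21.6, 13.2 and 18.6. Syne2 was at 107, 109 and 112 CPM against 44.7, 57.5 and 42.2, without the drop over time of Nqo1. Lefty2 was at 150, 54.1 and 41.5 CPM against 194, 121 and 55.1, while Lefty1 was lower at day 4 (71.0 against 165 CPM) and higher at days 7 and 10 (67.9 against 48.6 and 17.3 against 10.7). The genotype and the line cannot be told apart in these libraries either.

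The bulk libraries of undifferentiated cells offered replicated measurements that the clustering had not used. They were 4 per genotype from the mesoderm and the endoderm series, with 9883730 to 16365806 counts each, and the study describes the duplicates as technical, so that p-values measure only the spread between these libraries. Same-numbered libraries of the 2 series also resembled each other more than crossed pairs did (variance over sampling noise 1.91 to 2.66, against 3.47 to 6.09). The 4 libraries are thus not fully independent, and the p-values of the fit may be too small. In bulk RNA, fewer cells of a type and less RNA per cell cannot be told apart. The libraries labelled Jarid2 null differed from cluster 8 in genes that lay far apart between clusters 8 and 3. Hprt was at 0.402, 0.259, 0.366 and 0.679 CPM in them and at 0.189 to 0.524 CPM in WT, but at 75.3 to 91.6 CPM in the libraries labelled Mtf2 null. Eif2s3y was at 59.0 to 63.1 CPM and Meg3 at 76.5 to 130 CPM, and Olig2 had no count in 3 of the 4 libraries and 0.0610 CPM in the other. In all of these genes the libraries labelled Jarid2 null lay near WT and apart from the single cells of that label. Jarid2 was at 316, 307, 310 and 291 CPM against 461, 371, 443 and 354 in WT and 1058, 997, 923 and 928 in Mtf2 null. The groups did not overlap, and the log2 difference from WT was -0.41 (SE 0.10, edgeR quasi-likelihood test, Benjamini-Hochberg adjusted p = 0.0073), short of the limits for a call. Directions drawn below from the libraries labelled Jarid2 null stand under this doubt.

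Calls followed the limits in the methods of the study, an adjusted p below 0.001 together with a log2 difference of more than 1 either way. Between the libraries labelled Jarid2 null and WT, 98 of 16655 genes were called higher (0.588%) and 93 lower (0.558%), which is 1.15% of the genes either way. The counts were 34 and 51 when same-numbered libraries of the series were summed, 3 and 11 in the mesoderm series alone, 29 and 42 in the endoderm series alone, and 5 and 16 at a log2 limit of 2. None of the 9 higher leading genes was called, and their log2 differences ran from -0.50 to 0.09, with 1 above 0. Of the 29 lower leading genes tested, 1 was called, Lefty2, and 17 had the sign seen in the cells (median -0.08, against -0.01 over all genes). The libraries labelled Jarid2 null had 29.6, 22.8, 32.2 and 21.5 CPM of Lefty2, and WT had 104, 76.3, 97.6 and 67.4 CPM. All 4 lay below the lowest WT library, and the log2 difference was -1.70 (SE 0.15, edgeR adjusted p = 3.9465e-06). With same-numbered libraries of the series summed, the edgeR adjusted p was 0.000195. Lefty2 was called in each of the 16 settings tried at these limits, but not at a log2 limit of 2, and the libraries labelled Mtf2 null were as low, at 26.2 to 31.3 CPM. Lefty1 was at 36.9, 22.9, 33.4 and 24.1 CPM against 56.8, 37.5, 53.8 and 37.9 in WT, a log2 difference of -0.66 (SE 0.16, adjusted p = 0.0095) that was not called.

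**Figure D4:**
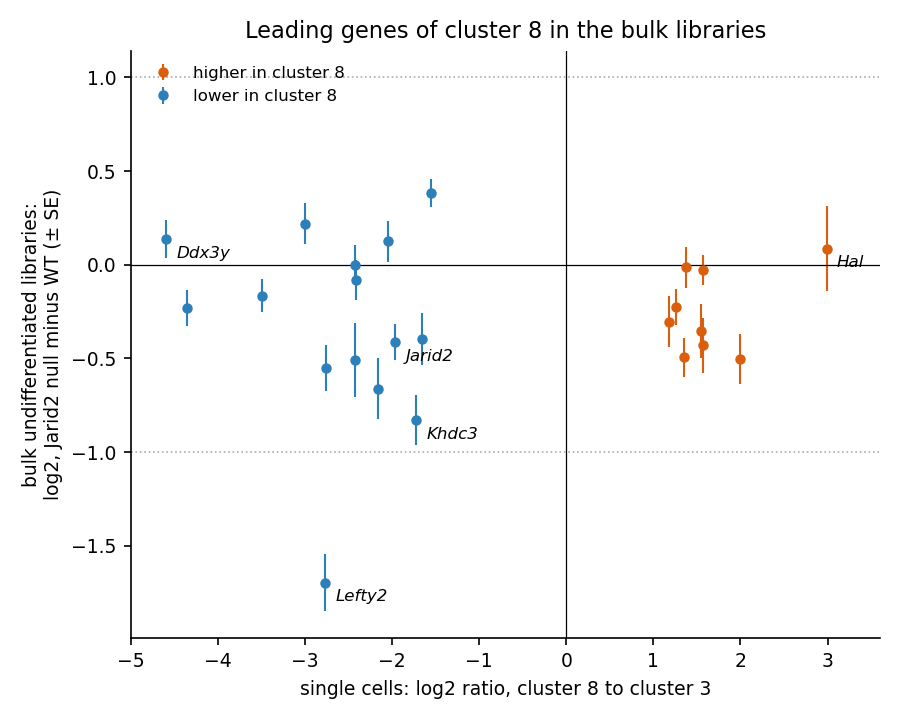
Log2 ratio of cluster 8 to cluster 3 in the single cells (x axis) against the log2 difference between libraries labelled Jarid2 null and WT in bulk (y axis, bars of 1 SE), for the 9 higher and the first 15 lower leading genes. Dotted lines mark the log2 limits of a call, and Lefty2, at -1.70, is the one point past them.

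The markers of the cluster were measured in the same fit. In the libraries labelled Jarid2 null, Nanog was at 322, 315, 306 and 298 CPM, below the lowest WT library at 387 CPM, with a log2 difference of -0.46 (SE 0.08, edgeR adjusted p = 0.0013). Esrrb was at 430, 330, 424 and 328 CPM and overlapped WT (289 to 436 CPM), with a log2 difference of 0.07 (SE 0.14, adjusted p = 0.775). Mtf2 overlapped WT as well, with a log2 difference of -0.08 (SE 0.10, adjusted p = 0.614). Other genes described above were called lower. Bmp4 was at 18.5, 16.3, 18.2 and 16.9 CPM against 46.9, 41.02, 45.5 and 38.5 in WT, and its log2 difference was -1.30 (SE 0.09, adjusted p = 3.5084e-07). Gbx2 was at 13.9, 11.9, 10.7 and 13.6 CPM against 45.1, 31.7, 41.4 and 32.4, with a log2 difference of -1.59 (SE 0.13, adjusted p = 2.0434e-06). In the single cells Bmp4 was also lower than in cluster 3, but Gbx2 was at 210 CPM against 156. Bnip3 was at 21.4, 32.6, 24.7 and 31.7 CPM against 108, 146, 115 and 138 in WT, with a log2 difference of -2.20 (SE 0.14, adjusted p = 1.7205e-07). Tdgf1 was at 513 to 538 CPM against 935 to 1226, with a log2 difference of -1.05 (SE 0.10, adjusted p = 1.019e-05). It was no longer called when same-numbered libraries of the series were summed (adjusted p = 0.0087), in either series alone, or without the second WT library of either series. Pfkp, Pgk1, Egr1 and Spry4 were the other named genes called lower, of which Pgk1 and Spry4 lost the call in the summed libraries too (adjusted p = 0.0014 and 0.0017). In the mesoderm series alone, with 2 libraries per genotype, these 4 genes, Bmp4 (adjusted p = 0.0014) and Gbx2 (adjusted p = 0.0015) missed the limit, and in the endoderm series alone Pgk1, Spry4 and Egr1 did. Genes called higher than WT are not named here, although 98 (0.588%) were, beside 93 lower (0.558%). The immediate early and heat shock list, with Egr1, had 1 of 9 genes called higher and 1 lower. The FGF and ERK list, with Spry4, had 1 of 11 each way, and 1 of 3 Hox genes was called higher.

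**Figure D5:**
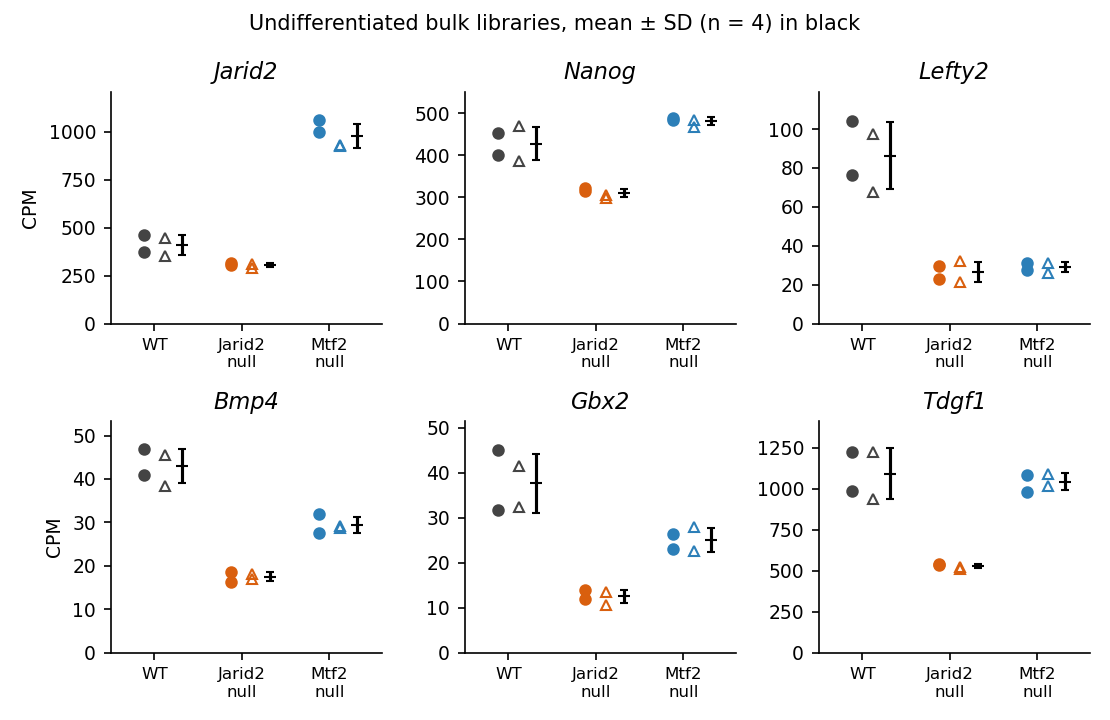
CPM of 6 genes in each undifferentiated bulk library by labelled genotype, with filled circles for the mesoderm series, open triangles for the endoderm series and the mean ± SD of 4 libraries in black. For Lefty2 the range is 21.5 to 32.2 CPM under the Jarid2 null label and 67.4 to 104 CPM in WT. The 6 genes shown are a selection in which these groups do not overlap. Esrrb and Mtf2, which overlapped WT in the same fit, are left out. The share of all tested genes that separate in this way was not counted, so no conclusion is drawn from the 6.

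Between the libraries labelled Jarid2 null and Mtf2 null, the labels that most cells of cluster 8 and of cluster 0 carry, 1146 of 16655 genes were called higher (6.88%) and 1189 lower (7.14%). Of the 29 lower leading genes tested, 10 were called lower, namely Klhl13, S100a6, Sfmbt2, Jarid2, Ahnak, AU015836, Krt17, Cltb, Peg10 and Ddah1, all of them in each of the 16 settings at these limits. Those labelled Jarid2 null had 5.55, 4.23, 4.33 and 5.05 CPM of S100a6 and those labelled Mtf2 null 35.7, 49.0, 48.0 and 50.5 CPM, with a log2 difference of -3.26 (SE 0.17, edgeR adjusted p = 7.6115e-10). WT was at 4.31 to 8.81 CPM, so the libraries labelled Mtf2 null were the ones apart. Of the 9 higher leading genes, Zic5 was called higher and Hal, Urah, Aoah and Elmo1 were called lower, against their direction in the cells. Elmo1 lost the call in the mesoderm series alone (edgeR adjusted p = 0.010), and Urah without the second mesoderm library labelled Jarid2 null. Zic5 was at 13.3 to 14.2 CPM against 0.838 to 1.73, with a log2 difference of 3.39 (SE 0.18, adjusted p = 9.2713e-10). Hal was at 1.95 to 2.94 CPM against 9.38 to 14.0, with a log2 difference of -2.24 (SE 0.20, adjusted p = 1.8391e-07). Both contrasts share the libraries labelled Jarid2 null.

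The WT line JM8 offered a view of the line background without a Jarid2 mutation. At day 0 it was sequenced as 1 sample in a pair of runs, beside 1 sample each of Pcl1-3 wt and J1, and no test was made. The values are counts scaled by a size factor. Eif2s3y was at 14.4 in JM8, 263 in Pcl1-3 wt and 525 in J1, and Ddx3y at 67.1, 255 and 254. Each of these Y-linked genes was lowest in JM8, Ddx3y by a narrower margin than Eif2s3y. In the single cells the log2 ratios of cluster 8 to cluster 3 were -4.36 for Eif2s3y and -4.60 for Ddx3y. At days 2, 4 and 7 of differentiation Eif2s3y was at 17.2, 2.82 and 5.06 in JM8, at 411, 300.1 and 359 in Pcl1-3 wt and at 454, 414 and 315 in J1, so that JM8 stayed the lowest of the 3 lines on these days. Hprt was at 664, 612.7 and 672, and Olig2 at 86.3, 28.3 and 1.86, with Olig1 at 155, 44.1 and 5.59. Aoah was at 73.1 against 14.9 and 5.59 (at day 7, 5.64 against 14.4 and 0), Inhbb at 143 against 27.6 and 67.0, and Tcl1 at 88.8 against 249 and 250. Of the 9 higher leading genes, 1 (Aoah) was 2-fold higher in JM8 than in both other lines, where 60 of 9759 genes were (0.615%). Of the 29 lower ones at the level, 4 (Eif2s3y, Ddx3y, Tcl1 and Ckb) were 2-fold lower than in both, where 135 genes were (1.38%). Lefty2 was not among them, at 397 in JM8, 430 in Pcl1-3 wt and 364 in J1, nor was Hal, at 87.0, 162 and 14.0, nor Klhl13, at 1405, 2746 and 1701. Jarid2 was at 2571, 2191 and 2007. At a 1.5-fold limit, Eif2s3y, Ddx3y, Tcl1 and Ckb were again the lower leading genes below both other lines, while 4 others were above both. Over all genes 4.81% were lower and 3.78% higher in JM8 than in both at that limit. This comparison was chosen after the data were seen, and what part the line has in the leading genes was not tested.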

How the data were processed

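Single cells were prepared by SORT-seq, in which a unique molecular identifier (UMI) tags each captured mRNA. The authors mapped reads with Bowtie2 to GRCm38 and counted them with HTSeq, and deposited raw UMI counts for 15830 genes and 4949 kept cells, with cluster numbers. For the bulk directed series the authors deposited estimated counts per gene from Salmon, without normalization, which were rounded here. For the WT lines the authors deposited a signal, gene counts divided by a DESeq2 size factor, and whole reads were recovered for 100% of values within 0.01 reads.

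UMIs were summed per group and scaled to 1000000 (Python 3.11.15, pandas 2.3.3, scipy 1.17.1). Thinning to 5000 UMIs used seed 11. No doublet caller was run, since each well was sorted to hold a single cell. Bulk libraries were fitted with edgeR 4.0.16 in R 4.3.3 (TMM, filterByExpr with a minimum count of 10, quasi-likelihood F test, a term for the series, all 12 libraries in 1 fit), with Benjamini-Hochberg adjustment over 16655 genes, and DESeq2 1.42.0 as an alternative. The scripts were tested on simulated data. Coordinates are from GENCODE M21 on GRCm38, which matched 15263 of the symbols (96.4%).

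The named genes were the targeted genes, Esrrb and Nanog, the leading genes (the first 15 in each direction), the first 5 in each direction of each cluster comparison, the highest or 2-fold different members of each gene list, and the 5 most variable genes. Otx2, Gbx2 and the genes outside this rule in the comparisons within a plate and within the cluster were picked with their values known. The members and lists were chosen with earlier results of these data known. Alternatives covered scaling, level and fold limits, thinning, filters, each left-out library and each series alone. Libraries of the mutant lines in the bulk embryoid body series were not used here.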

Additional observations from a re-analysis of the deposited data

Results flagged for a closer look

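Of 84 groups of 4 bulk libraries of the named genes, 2 held a library far from the other 3, and chance alone gives about 1 in 20. Ddx3y was at 50.1 CPM in the second endoderm library labelled Jarid2 null, against 58.8 to 59.4 CPM in the other 3. S100a6 was at 35.7 CPM in the first mesoderm library labelled Mtf2 null, against 48.0 to 50.5 CPM in the other 3. None of 28 genes moved in opposite directions in the mesoderm and the endoderm series.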

How the results depend on the processing

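With edgeR on the 4 undifferentiated libraries a genotype, the counts against WT (98 higher, 93 lower) were 29 and 42 in the endoderm series alone, 3 and 11 in the mesoderm series alone, 220 and 144 without a filter on low counts, 343 and 308 without a fold limit, 5 and 16 at a log2 limit of 2, and 34 and 51 with same-numbered libraries of the series summed. That last setting was chosen after seeing that such pairs resembled each other more (variance over sampling noise 1.91 to 2.66, against 3.47 to 6.09 for crossed pairs). Against Mtf2 null (1146 higher, 1189 lower) there were 638 higher in the mesoderm series alone, 1742 without a filter, 2186 and 2762 without a fold limit, and 470 and 414 at a limit of 2. Leaving out 1 library at a time gave 66 to 104 higher and 72 to 83 lower against WT, and 1028 to 1251 and 972 to 1169 against Mtf2 null. DESeq2 gave 119 and 106, and 1259 and 1162. The replicate block gave 91 and 85, and 1129 and 1154, and the deviations of same-numbered libraries correlated at 0.369 and 0.314 between WT and the libraries labelled Jarid2 null and at -0.43 to 0.108 between the other genotypes, so a pairing by number was not taken as given. Against WT the log2 difference of Mtf2 ran from -0.18 to 0.025 and that of Esrrb from -0.021 to 0.21 with 1 library left out. Mtf2 turned to 0.025 without the second mesoderm WT library, and Esrrb to -0.010, -0.021 and -0.0094 without the second mesoderm WT, the second endoderm WT or the first endoderm library labelled Jarid2 null.

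For cluster 8 against cluster 3 (104 higher, 190 lower), limits of 20 CPM, 100 CPM and 1.5-fold gave 224 and 451, 60 and 78, and 363 and 630. Against cluster 0 (36 and 69) they gave 72 and 162, 18 and 37, and 139 and 215. Against all other cells (112 and 314) they gave 170 and 805, 129 lower, and 394 and 743. Of the leading genes (9 higher, 30 lower) there were 30 and 72, 5 and 15, and 48 and 90, and the higher ones were 15 with the mean over cells, 17 with thinned cells and 16 with 1 genotype at day 0 per cluster. In all 3 of these the 9 genes remained. With whole day 0 libraries in place of the clusters, 7 of the 9 and 22 of the 30 remained, without Kdm2b and Zic5. The causes were not tested, apart from limits and fewer libraries, which change the counts by construction. Depth limited the small groups most: over the 15 Mtf2 null members a count of 0 allows up to 22.7 CPM.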

Other observations

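Read along the chromosomes, the median log2 ratio of cluster 8 to cluster 3 lay close to the median of all genes for most chromosomes. The 270 genes of chromosome 1 had a median 0.18 above it, and 66.3% of them lay above that median. Against cluster 0 the 260 genes of chromosome 1 had a median 0.08 above that of all genes, and the 254 genes of chromosome 8 a median 0.09 above it. The 153 genes of chromosome X had a median 0.09 below it. Against cluster 3 the 181 genes of chromosome 14 had a median 0.12 below that of all genes, and the 257 genes of chromosome 9 a median 0.09 below it. These are single-library descriptions without a test.

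Sox1, a marker of early neural cells, was at 30.5 CPM against 7.48 in cluster 3 and 4.29 in cluster 0. Rhox5, Rhox6 and Rhox9, homeobox genes of one X-linked cluster, were at 0, 0 and 0.391 CPM in cluster 8, at 44.9, 19.7 and 16.3 CPM in cluster 3 and at 29.8, 74.7 and 47.7 CPM in cluster 0. All 3 genes were thus at or near 0 in cluster 8.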
